A study of Mus musculus with 8 samples.

Results

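The genes described here are the regulators of the cell cycle and of mitosis. They are the genes whose deposited annotation carries the KEGG pathway term for the mouse cell cycle. Genes that also carried the DNA replication term were left out, as were Ccnd1, Myc, Cdkn1a, Mdm2 and Trp53, and Mki67, Top2a, Cenpf, Birc5, Aurka and Ube2c were added by name. Of 122 genes with the cell cycle term, 7 also carried the replication term and 5 were the named exceptions, and none of the 6 added genes carried the term. This gave 116 members among 34745 genes in each table. The rule uses no measured value.

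A cell passes from one phase of its cycle to the next when cyclin-dependent kinases (CDKs) are activated by cyclins, whose amounts rise and fall through the cycle. CDK inhibitors and the kinase Wee1 hold these kinases back, the Cdc25 phosphatases release them, and the Rb proteins keep the E2F transcription factors silent until S phase begins. At mitosis the spindle checkpoint delays the anaphase-promoting complex (APC/C), a ubiquitin ligase that marks cyclin B and securin for destruction so that the sister chromatids separate. In the intestine, division takes place in the crypt, the gland whose base holds the stem cells and whose walls hold their fast-cycling descendants.

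The data were 8 RNA sequencing libraries of crypts from wild-type C57BL/6 mice at Day 5, all from mice given DSS (dextran sulfate sodium), which damages the intestinal lining and serves to model colitis. In 4 libraries DSS was the whole treatment, and in the other 4, labelled DSS+CA, it was combined with cholic acid, the bile acid named in the title of the series. The comparison asked what cholic acid changed in crypts of mice given DSS, and no group without DSS is analysed here. The labels give no gut segment, age, sex, dose or route, and they do not say whether the replicates are separate animals, so the p-values measure only the spread between these libraries, which may be technical.

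Total counts were 13334012 to 17973196 per library, and the members took 0.340% to 0.608% of them. DSS 2, DSS 3 and DSS+CA 3 stood apart, with a mean length of a counted gene of 1423 to 1448 bases against 1719 to 2412 bases in the other 5 libraries. Mitochondrial genes took 16.2%, 27.7%, 17.8% and 19.8% of the counts in DSS 1 to 4 and 9.72%, 14.1%, 20.5% and 13.2% in DSS+CA 1 to 4, lower in 3 of the 4 DSS+CA libraries than in any DSS library; the part of this in the members' values was not tested. Epithelial markers (Epcam, Cdh1, Krt8, Krt20 and Vil1) were high in every library, with a summed level of 9036 to 10450 CPM in DSS and 8862 to 9833 CPM in DSS+CA. CPM is edgeR's scaled level, a gene's count relative to the library's total over tested genes after TMM scaling. In bulk crypt RNA, fewer dividing cells and less RNA of a gene per cell cannot be told apart.

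Many genes that peak in G2 and M phase share a pair of promoter elements, the CCAAT box that binds NF-Y and the cell cycle homology region (CHR), which is bound by the DREAM and MuvB complexes. For 6 members with values given below, a stretch upstream of the RefSeq start (RefSeq sequences, GRCm38.p6) is shown, because 5 of them hold both elements in the stretch shown and the last, a G1/S gene, holds the CCAAT box alone. Capitals mark TTTGAA, the CHR letters searched here, and CCAAT, each on either strand, so that TTCAAA and ATTGG are the same elements on the opposite strand. Cdk1 is read from the minus strand of chr10:69352939-69353012, Cdc20 from the minus strand of chr4:118437353-118437443, and Espl1 from the plus strand of chr15:102296193-102296292. Top2a is read from the minus strand of chr11:99024190-99024289, Mki67 from the minus strand of chr7:135716460-135716579, and Cdc25a from the plus strand of chr9:109875439-109875578.
Cdk1: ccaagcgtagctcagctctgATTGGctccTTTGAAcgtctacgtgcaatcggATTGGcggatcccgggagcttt
Cdc20: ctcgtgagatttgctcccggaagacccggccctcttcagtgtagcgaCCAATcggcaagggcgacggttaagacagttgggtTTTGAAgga
Espl1: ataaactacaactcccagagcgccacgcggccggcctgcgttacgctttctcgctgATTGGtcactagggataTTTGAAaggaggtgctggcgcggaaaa
Top2a: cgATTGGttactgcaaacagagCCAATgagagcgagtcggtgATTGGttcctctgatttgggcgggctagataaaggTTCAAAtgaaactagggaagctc
Mki67: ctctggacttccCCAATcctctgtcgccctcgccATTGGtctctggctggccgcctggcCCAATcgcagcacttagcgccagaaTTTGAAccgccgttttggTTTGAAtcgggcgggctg
Cdc25a: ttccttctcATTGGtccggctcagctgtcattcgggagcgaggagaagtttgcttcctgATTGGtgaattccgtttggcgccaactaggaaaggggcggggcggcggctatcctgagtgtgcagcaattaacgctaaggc

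Promoter windows reaching from 250 bases before to 50 bases after the start were found for 95 of the 116 members, 119 windows in all. A CHR and a CCAAT box stood together in 14 of the 22 windows of the G2/M members (63.6%), against 6.95% of all 32851 mouse promoter windows and 15.1% of the members' windows. Taken alone, the CHR was in 63.6% and the CCAAT box in 77.3% of the G2/M windows, against 17.9% and 37.4% of all windows. The pair was not confined to G2/M members. Of the 19 windows of G1/S members, 4 held both elements (21.1%), 36.8% held the CHR and 36.8% the CCAAT box. The E2F core GCGGGAA (or TTCCCGC on the other strand) was in 15.1% of the members' windows, 26.3% of those of G1/S members and 4.6% of all windows, and 0 of the 22 G2/M windows held these letters. Each motif was searched by itself, so that neighbouring matches may share end bases, and a match is a description of the sequence, not a bound site.

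**Figure D1:**
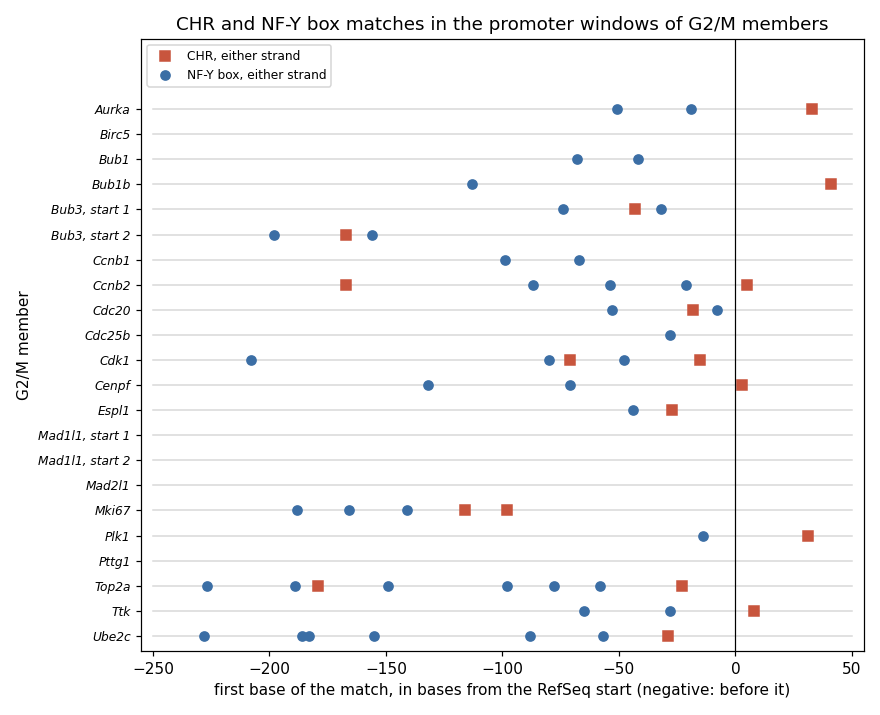
Position of each CHR (squares) and each NF-Y box, the CCAAT letters (circles), on either strand in the promoter windows of the G2/M members, in bases from the RefSeq start, with 1 line per window. The CHR and the NF-Y box stand together in 14 of the 22 windows, and most of the CHR matches lie within 100 bases of the start.

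Of the 116 members, 104 passed the filter on low values (a deposited FPKM of 1 or more in 4 or more of the 8 libraries) and were tested. The other 12 were Cdkn2a, Cdc14a, Wee2, Tgfb1, Tgfb2, Tgfb3, Atr, Ccna1, Ccnb3, Cdc7, Orc1 and Smc1b. Cdkn2a, the locus of the INK4A and ARF tumour suppressors, held 2 counts over the DSS libraries and 7 over the DSS+CA libraries, while Ccnb3 and the meiotic cohesin gene Smc1b held 0 in all 8.

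No tested member differed between DSS+CA and DSS past an adjusted p of 0.05 in edgeR's quasi-likelihood test. The smallest adjusted p of a member was 0.591, for Gadd45b. Over all 9913 tested genes the same rule called 13 genes, or 0.131%. At an unadjusted p below 0.05, 1 member was higher in DSS+CA (0.962%, against 2.97% of all tested genes) and 1 was lower (0.962%, against 4.85%). DESeq2 called 0 members after adjustment, against 2.22% of all tested genes, and 4 members (3.85%) at an unadjusted p below 0.05, against 8.86%. The 4 DSS+CA libraries all lay above the 4 DSS libraries for 3 members, or 2.88%, where 3.24% of all tested genes did so, and they all lay below for 0 members, against 2.81%. These shares of members lie near or under those of the whole table.

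The log2 fold changes of the members, DSS+CA against DSS, ran from -1.35 to 1.02. Their median was 0.02, as it was over all tested genes, and 54 of the 104 were above 0 (51.9%, the same as the 51.9% of all tested genes). Their median size without sign was 0.284, against 0.268 for all tested genes, and 101 of the 104 lay within 1 in either direction. The libraries left room for moderate changes. The 95% interval of the log2 fold change lay wholly between -1 and 1 for 39 members and reached past one of these bounds for 65, and its median width to either side was 0.814. On simulated counts for this comparison the test recovered 4.48% of genes changed by a fold of 2, 67.2% at a fold of 4 and 100% at a fold of 8. The simulation used all 8 libraries and drew each gene by itself, so it held no shift shared by many genes of a library.

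**Figure D2:**
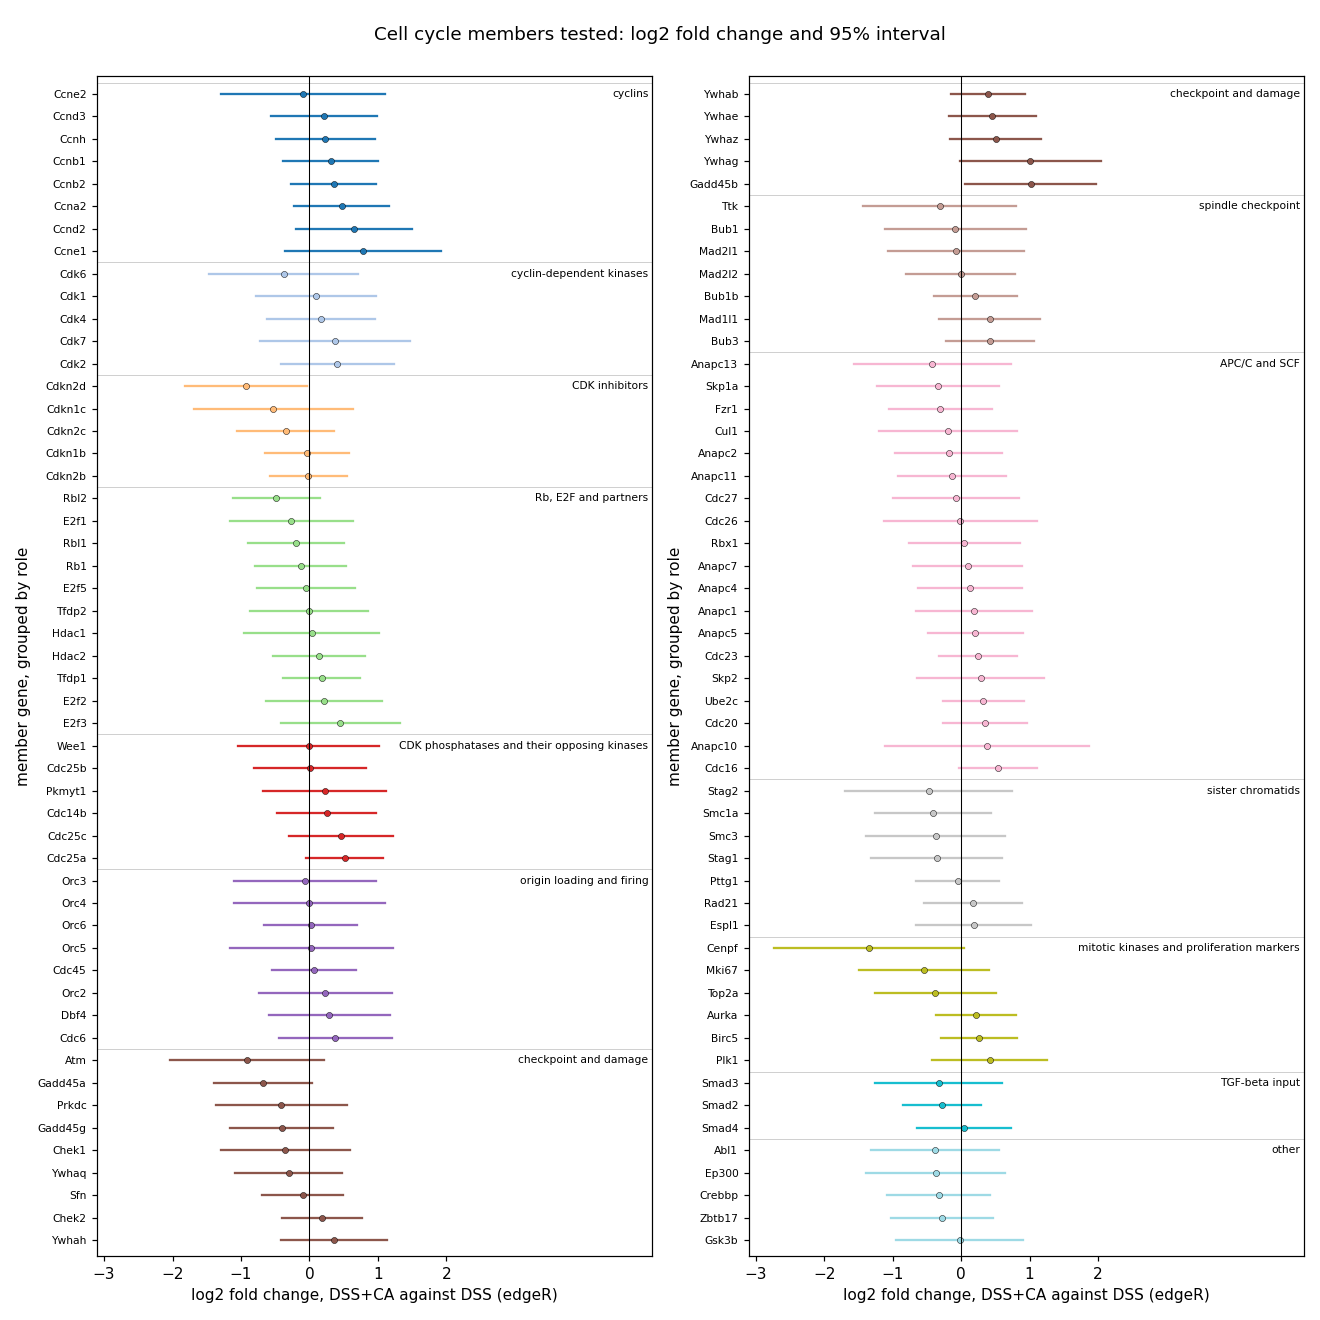
Log2 fold change of each of the 104 tested members, DSS+CA against DSS (points), with its 95% interval from the edgeR fit (lines), grouped by role. The intervals of Gadd45b and Cdkn2d exclude 0, and those of the other members cross it.

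No cyclin passed the test, and 7 of the 8 tested had a log2 fold change above 0, with a median of 0.33. Ccnd2 (ENSMUSG00000000184, chr6:127125162-127152193), the D-type cyclin that carries growth signals to CDK4 and CDK6, measured 196, 87.0, 88.0 and 144 CPM in DSS 1 to 4 and 295, 181, 108 and 221 CPM in DSS+CA 1 to 4. The DSS+CA mean was higher, at 201 ± 77.9 against 129 ± 52.1 CPM (SD, n = 4), and the groups overlapped. Its log2 fold change was 0.65 (SE 0.39, adjusted p = 0.804). Ccnd3, its paralog, measured 9.61 to 15.4 CPM in DSS and 7.05 to 19.4 CPM in DSS+CA, a log2 fold change of 0.21.

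Ccne1, cyclin E1, which drives entry into S phase with CDK2, measured 5.98, 1.14, 7.91 and 3.83 CPM in DSS and 11.4, 8.42, 3.99 and 8.56 CPM in DSS+CA. All but 1 of the DSS+CA libraries were above every DSS library, and the exception was DSS+CA 3; the log2 fold change was 0.78 (SE 0.52, adjusted p = 0.869). Its paralog Ccne2 did not follow it. Ccne2 stood at 46.2 CPM in DSS 2 and 44.5 CPM in DSS+CA 3, and at 9.33 to 18.3 CPM in the other 6 libraries, which left a log2 fold change of -0.09 (SE 0.55).

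Ccna2, cyclin A2, which acts in S phase and G2, measured 62.4, 50.8, 25.9 and 53.7 CPM in DSS and 77.8, 69.1, 53.2 and 66.8 CPM in DSS+CA. Only DSS+CA 3 lay within the DSS range, and the log2 fold change was 0.47 (SE 0.31, adjusted p = 0.869). The B-type cyclins, which take the cell into mitosis with CDK1, overlapped between the groups. Ccnb1 measured 11.6 to 20.4 CPM in DSS and 13.6 to 27.7 CPM in DSS+CA, a log2 fold change of 0.31 (SE 0.32). Ccnb2 measured 24.8 to 40.8 CPM in DSS and 34.5 to 55.1 CPM in DSS+CA, a log2 fold change of 0.35 (SE 0.28).

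Of the 5 CDK genes, 4 had a log2 fold change above 0, with a median of 0.16, and none passed the test. Cdk1 (ENSMUSG00000019942, chr10:69336635-69352938), the kinase of mitotic entry, measured 25.1, 78.0, 55.8 and 40.0 CPM in DSS and 34.9, 49.9, 85.5 and 41.5 CPM in DSS+CA. Its highest libraries were DSS 2 and DSS+CA 3, on opposite sides of the comparison, and the log2 fold change was 0.09 (SE 0.40, adjusted p = 0.999). Cdk2, the partner of cyclins E and A, measured 9.00 to 20.6 CPM in DSS and 9.10 to 23.8 CPM in DSS+CA, a log2 fold change of 0.41. Cdk6, a partner of the D-type cyclins, measured 6.54 to 37.4 CPM in DSS and 9.51 to 23.7 CPM in DSS+CA, a log2 fold change of -0.38.

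Cdk4 (ENSMUSG00000006728), the other partner of the D-type cyclins, measured 48.2, 59.6, 122 and 54.7 CPM in DSS and 87.1, 86.7, 50.3 and 94.4 CPM in DSS+CA. DSS 3 was above, and DSS+CA 3 below, all other libraries of their group, and the log2 fold change was 0.16 (SE 0.36, adjusted p = 0.998). When DSS 2, DSS 3 and DSS+CA 3 were left out, Cdk4 and Atm passed the threshold, 2 of the 104 members (1.92%), where 655 of the 9913 genes did so (6.61%). Cdk4 then had a log2 fold change of 0.77 (adjusted p = 0.0398), on 2 DSS and 3 DSS+CA libraries.

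All 5 tested CDK inhibitors had a log2 fold change below 0, with a median of -0.35, and none passed the test. Cdkn2d (ENSMUSG00000096472, chr9:21288463-21291209), which encodes the INK4D inhibitor of CDK4 and CDK6, measured 3.05, 5.80, 9.96 and 4.62 CPM in DSS and 3.64, 3.35, 2.35 and 2.89 CPM in DSS+CA. Only DSS 1 was as low as the DSS+CA libraries, and the log2 fold change was -0.93 (SE 0.40, edgeR unadjusted p = 0.0419, adjusted p = 0.604). Without DSS 2, DSS 3 and DSS+CA 3 it was -0.24. Cdkn2c, its paralog, measured 6.10 to 13.4 CPM in DSS and 6.13 to 8.69 CPM in DSS+CA, a log2 fold change of -0.35. Cdkn1c, which encodes p57, was low in every library, at 0.818 to 4.64 CPM, with a log2 fold change of -0.53 (SE 0.53). Cdkn1b, which encodes p27, and Cdkn2b, which encodes p15, were nearly level between the groups. Cdkn1b had 31.7 ± 4.57 CPM in DSS and 30.9 ± 8.19 CPM in DSS+CA (SD, n = 4). Cdkn2b had 47.2 ± 8.10 and 46.5 ± 5.84 CPM.

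Of the Rb and E2F genes and their partners, 5 of 11 were above 0, and their median was -0.01. Rb1, the retinoblastoma gene, measured 69.3, 48.2, 31.6 and 52.1 CPM in DSS and 45.2, 45.8, 56.6 and 36.2 CPM in DSS+CA, a log2 fold change of -0.13. Rbl2, which encodes the Rb relative p130 of resting cells, measured 23.7 to 48.6 CPM in DSS and 24.9 to 32.6 CPM in DSS+CA, and the log2 fold change was -0.49 (SE 0.29, adjusted p = 0.8). E2f1, the activating E2F factor, stood at 5.49 to 9.05 CPM in DSS and 6.27 to 7.02 CPM in 3 DSS+CA libraries, but at 1.94 CPM in DSS+CA 3, and its log2 fold change was -0.26 (SE 0.41).

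Cdc25a (ENSMUSG00000032477, chr9:109875579-109893895), the phosphatase that frees CDK2 at the start of S phase and whose promoter stretch is shown above, was 1 of the 3 members whose groups did not overlap. It measured 68.9, 53.3, 62.1 and 46.2 CPM in DSS and 90.0, 84.9, 71.1 and 83.2 CPM in DSS+CA. Every DSS+CA library was above every DSS library. The log2 fold change was 0.51 (SE 0.26, 95% interval -0.05 to 1.08, adjusted p = 0.700), and edgeR's test, which also draws on the spread of other genes, did not call it. Wee1, the kinase that opposes Cdc25, measured 4.35 to 10.2 CPM in DSS and 1.84 to 8.93 CPM in DSS+CA, a log2 fold change of -0.01. Of the 6 tested genes of this role, 5 were above 0, with a median of 0.23.

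Among the checkpoint and damage genes, 7 of 14 were above 0, and the values spread widely. Gadd45b (ENSMUSG00000015312, chr10:80930091-80932204), a stress-induced gene of the Gadd45 family, measured 7.50, 10.9, 27.9 and 12.9 CPM in DSS and 23.0, 18.7, 44.9 and 33.3 CPM in DSS+CA. It was the member with the smallest p. Its log2 fold change was 1.02 (SE 0.44, edgeR unadjusted p = 0.0394, adjusted p = 0.591), and the groups overlapped through DSS 3. Gadd45a, the damage-induced member of the same family, was on the other side of 0. It measured 44.7, 75, 35.8 and 50.1 CPM in DSS and 22.5, 33.2, 45.7 and 27.1 CPM in DSS+CA; the log2 fold change was -0.68 (SE 0.33, adjusted p = 0.677).

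Atm, the kinase that senses double-strand breaks, measured 24.6, 34.2, 3.65 and 19.4 CPM in DSS against 12.8, 9.74, 10.5 and 10.5 CPM in DSS+CA. The DSS libraries were both the highest and, in DSS 3, the lowest, and the log2 fold change was -0.91 (SE 0.51, adjusted p = 0.764). Without DSS 2, DSS 3 and DSS+CA 3 it was -1.03 (adjusted p = 0.0424). Chek1, the kinase downstream of ATR, measured 3.12 to 14.3 CPM in DSS and 4.65 to 6.90 CPM in DSS+CA, and its log2 fold change was -0.35 (SE 0.43).

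The 14-3-3 proteins encoded by the Ywha genes bind phosphorylated partners such as Cdc25 and hold them in the cytoplasm. Ywhab (ENSMUSG00000018326, chr2:163994960-164018588) did not overlap between the groups, at 156, 158, 137 and 150 CPM in DSS and 197, 182, 207 and 201 CPM in DSS+CA. Its group means, 150 ± 9.20 and 197 ± 10.6 CPM (SD, n = 4), lay further apart than the spread within either group. The log2 fold change was 0.39 (SE 0.25, adjusted p = 0.845), so it was not called either. Ywhag measured 46.0, 16.6, 30.7 and 12.5 CPM in DSS and 79.6, 50.5, 23.4 and 59.5 CPM in DSS+CA, and the log2 fold change was 1.01 (SE 0.47, adjusted p = 0.651). Ywhaz measured 76.8 to 140 CPM in DSS and 110 to 173 CPM in DSS+CA, a log2 fold change of 0.51 (SE 0.30).

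Spindle checkpoint genes were split, with 3 of 7 above 0 and a median of -0.01. Bub1, a checkpoint kinase at the kinetochore, measured 17.7, 41.9, 12 and 21.1 CPM in DSS and 14.2, 19.2, 41.3 and 13 CPM in DSS+CA. Mad2l1, which blocks Cdc20 until all chromosomes are attached, measured 25, 84.1, 63.9 and 48.9 CPM in DSS and 33.8, 41.0, 101 and 35.1 CPM in DSS+CA. Both had a log2 fold change of -0.08, and both were highest in DSS 2 or DSS+CA 3. Bub1b, the BubR1 subunit of the checkpoint complex, measured 20.1 to 33.5 CPM in DSS and 24.1 to 37.3 CPM in DSS+CA, a log2 fold change of 0.21.

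Of 19 genes of the APC/C and of SCF, the ubiquitin ligase of G1 and S phase, 11 were above 0, with a median of 0.09. Cdc16 (ENSMUSG00000038416, chr8:13757676-13781938), a scaffold subunit of the APC/C, measured 17.1, 21.8, 23.7 and 16.3 CPM in DSS and 24.2, 28.5, 30.6 and 31.0 CPM in DSS+CA. The groups did not overlap, and the log2 fold change was 0.54 (SE 0.26, 95% interval -0.04 to 1.11, adjusted p = 0.687). Cdc20, the activator of the APC/C at anaphase, measured 28.8, 22.4, 39.4 and 30.3 CPM in DSS and 42.9, 41.4, 28.4 and 40.4 CPM in DSS+CA. DSS+CA 3 was the sole library of its group within the DSS range, and the log2 fold change was 0.34 (SE 0.28). Ube2c, the ubiquitin-conjugating enzyme of the APC/C, measured 30.2 to 50.9 CPM in DSS and 46.8 to 56.6 CPM in DSS+CA, a log2 fold change of 0.32 (SE 0.27).

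Genes that hold and release the sister chromatids had a median of -0.36, with 2 of 7 above 0. Pttg1, which encodes securin, measured 8.41 to 14.0 CPM in DSS and 10.6 to 12.4 CPM in DSS+CA, a log2 fold change of -0.05. Espl1, which encodes separase, the protease that cuts cohesin, measured 6.41 to 12.9 CPM in DSS and 5.83 to 16.4 CPM in DSS+CA, a log2 fold change of 0.18. The cohesin subunit gene Stag2, chosen after its values were seen, showed how far the libraries of 1 group could differ. It measured 107, 417, 86.2 and 175 CPM in DSS and 70.7, 122, 277 and 93.1 CPM in DSS+CA.

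Common markers of proliferating tissue gave no single direction. Mki67 (ENSMUSG00000031004, chr7:135689788-135716379), which encodes the Ki-67 protein of cycling cells, measured 189, 210, 51.3 and 170 CPM in DSS and 125, 96.8, 142 and 60.8 CPM in DSS+CA. Of the DSS libraries, 3 were above every DSS+CA library, but DSS 3 was the lowest of all 8, and the log2 fold change was -0.55 (SE 0.43, adjusted p = 0.911). Top2a, the topoisomerase that untangles chromosomes, had the same shape, at 159, 207, 49.3 and 156 CPM in DSS and 142, 113, 81.2 and 104 CPM in DSS+CA, a log2 fold change of -0.38 (SE 0.40).

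Cenpf (ENSMUSG00000026605, chr1:189640606-189688086), a large kinetochore protein of G2 and M phase, measured 22.3, 96.0, 9.13 and 40.8 CPM in DSS and 14.2, 15.5, 28.8 and 7.63 CPM in DSS+CA. Its log2 fold change, -1.35 (SE 0.63, adjusted p = 0.657), was the lowest of the members, although it was -0.55 without DSS 2, and its libraries spread over 12.6-fold, the widest of the members. Plk1, a kinase of mitotic entry and exit, measured 23.9, 8.92, 23.1 and 22.0 CPM in DSS and 37.3, 24.9, 14.5 and 27.2 CPM in DSS+CA, a log2 fold change of 0.42 (SE 0.38). Aurka, the kinase of the spindle poles, measured 17.1 to 22.0 CPM in DSS and 18.2 to 29.0 CPM in DSS+CA, a log2 fold change of 0.22. Birc5, which encodes survivin of the chromosomal passenger complex, measured 27.9 to 42.1 CPM in DSS and 38.2 to 47.7 CPM in DSS+CA, a log2 fold change of 0.26.

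**Figure D3:**
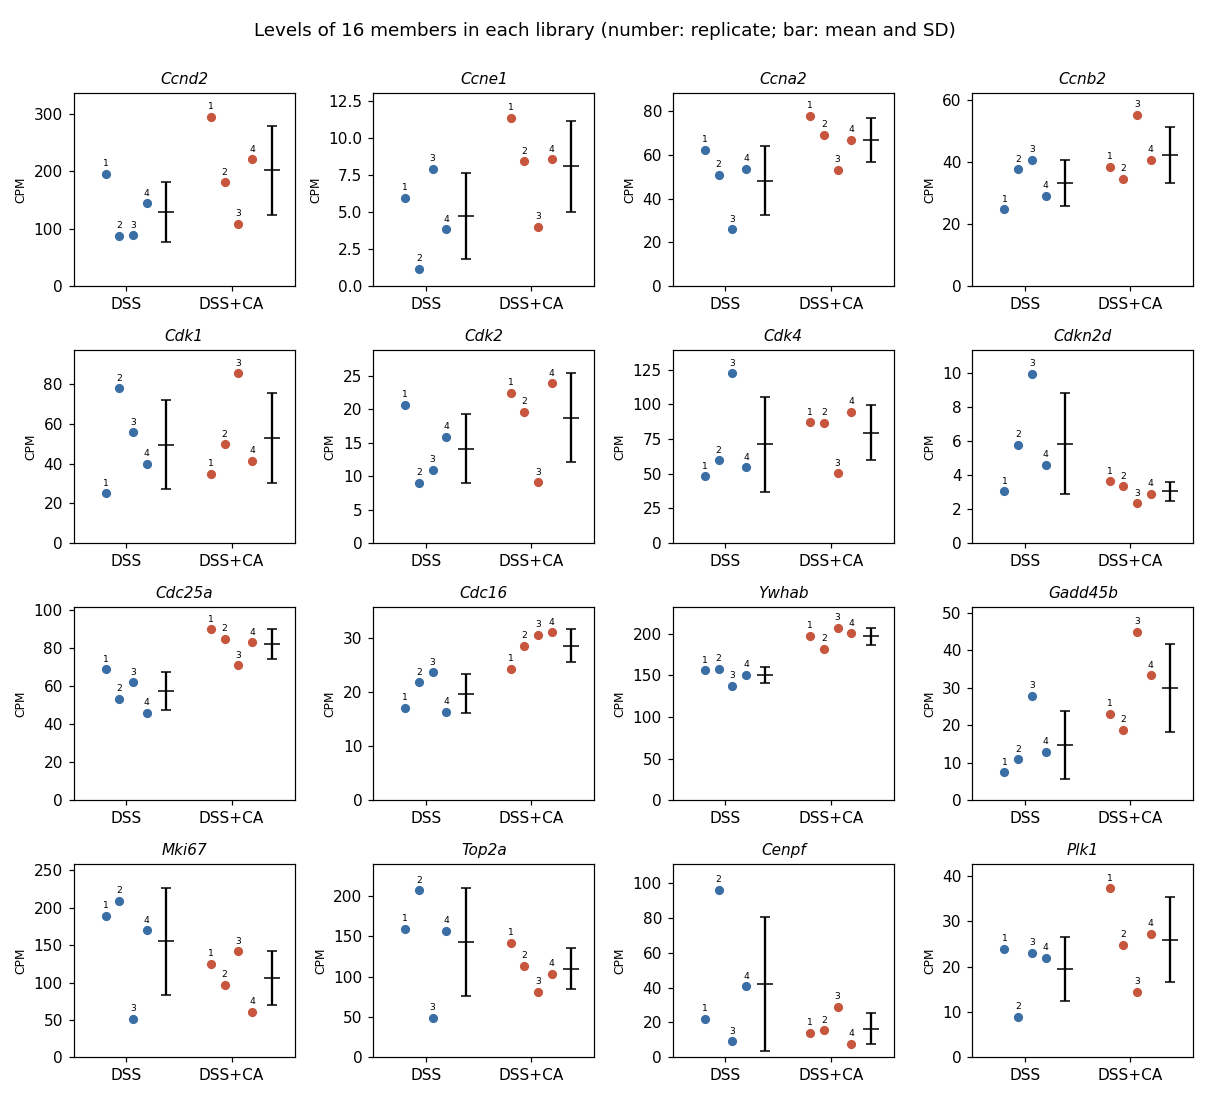
Level of 16 members in each library, in CPM on axes that start at 0, with the replicate number beside each point and the group mean and SD (n = 4) to its right. Cdc25a, Cdc16 and Ywhab do not overlap between DSS and DSS+CA, and in the other 13 panels at least 1 library lies within the range of the other group.

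Grouped by phase, 16 of the 23 G2/M members were above 0, with a median of 0.22, and 9 of the 14 tested G1/S members, with a median of 0.19. No member of either list passed the test. Of the 67 tested members in neither list, 29 were above 0, and their median was -0.02. Mki67, Top2a and Cenpf were among the 7 G2/M members below 0, next to Cdc20, Ube2c, Plk1, Aurka and Birc5 above it. Over all tested members, gene length, as implied by the deposited FPKM, moved with the log2 fold change. Of the 52 members with the shorter genes 33 were above 0, and of the 52 with the longer genes 21 were, with medians of 0.16 and -0.05. In a fit with an offset for this length, the G2/M median was 0.16 and the G1/S median 0.18. The part of gene length in the split by phase was not tested beyond this fit.

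Outside the members, 41 other mitosis genes were tested, and 25 of them were above 0, with a median of 0.10 and 0 past the threshold. At an unadjusted p below 0.05 in edgeR, 1 was higher in DSS+CA (2.44%, against 2.97% of all tested genes), namely Tacc3, which stabilises spindle microtubules. Tacc3 measured 15.7, 13.9, 13.5 and 16.6 CPM in DSS and 23.9, 19.0, 28.2 and 26.8 CPM in DSS+CA. The groups did not overlap, and the log2 fold change was 0.71 (SE 0.26, adjusted p = 0.440). Nek2, a centrosome kinase, was the other gene of this list whose groups did not overlap, at 11.2 to 21.5 CPM in DSS and 22.5 to 31.7 CPM in DSS+CA (log2 fold change 0.54, adjusted p = 0.739). The 2 genes are 4.88% of the list, against 3.24% of all tested genes.

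The lowest p below 0 in this list belonged to Smc4 and Cenpe. Smc4, a condensin subunit, measured 61.7, 118, 21.1 and 69.8 CPM in DSS and 37.7, 43.3, 73.6 and 35.2 CPM in DSS+CA, a log2 fold change of -0.52. Without DSS 2, DSS 3 and DSS+CA 3 it was -0.79 (adjusted p = 0.0422), the only 1 of the 41 genes past the threshold in that fit, which called 6.61% of all tested genes. Cenpe, a kinetochore motor, measured 9.96 to 85.7 CPM in DSS and 11.7 to 50.4 CPM in DSS+CA, a log2 fold change of -0.68. Aurkb, the kinase of the passenger complex, Foxm1, a transcription factor of G2/M genes, and Kif11, the motor that separates the spindle poles, had log2 fold changes of 0.20, 0.22 and 0.02.

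The members also varied between libraries in a way that the groups did not follow. The highest library of a member stood above its lowest by a median of 3.0-fold, against 3.08-fold for all tested genes. The highest value lay in DSS 2 for 26 members and in DSS+CA 3 for 27, together 51.0% of the tested members, against 37.7% of all tested genes. Of the 8 tested genes of origin loading, 5 were highest in DSS+CA 3. Orc4, a subunit of the origin recognition complex chosen after its values were seen, measured 18.7, 60.2, 29.3 and 29.0 CPM in DSS and 18.1, 26.6, 73.7 and 19.0 CPM in DSS+CA, a log2 fold change of 0.00. Orc2, Orc3 and Orc5 were highest in the same pair of libraries.

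The GC content of the transcripts moved with these libraries. Members highest in DSS 2 and in DSS+CA 3 had a median transcript GC content of 43.7% and 44.4%, while those highest in DSS 3 had 57.0% and those lowest in DSS+CA 3 had 56.1%. The tested members ranged from 36.3% (Ccne2) to 62.5% (Pkmyt1), with a median of 47.1%, against 49.98% for all tested genes. All tested genes showed the same order, with 44.2%, 45.9% and 55.6% for the genes highest in DSS 2, DSS+CA 3 and DSS 3. Its part in any single gene's value was not tested.

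**Figure D4:**
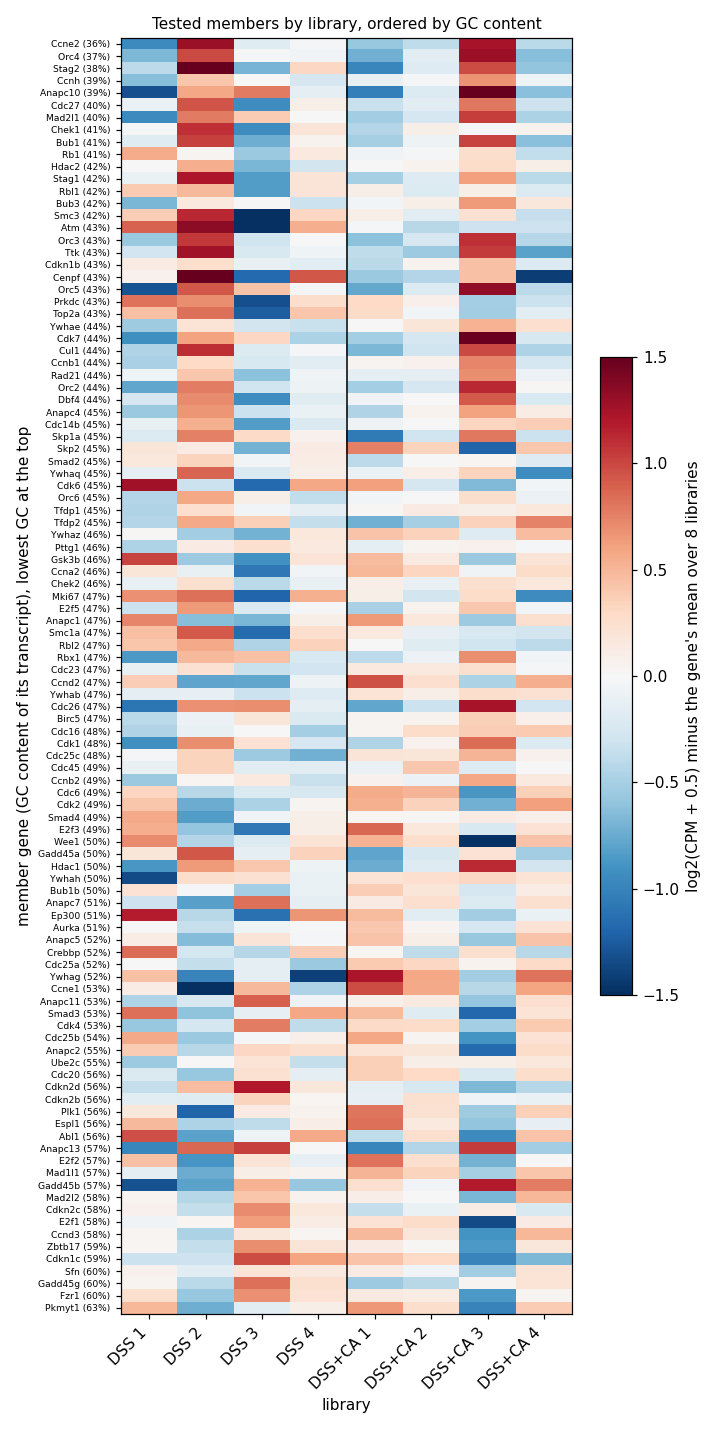
Log2(CPM + 0.5) of each tested member in each library, minus the gene's mean over the 8 libraries (colour), with members ordered from the lowest transcript GC content at the top to the highest at the bottom. DSS 2 and DSS+CA 3 are mostly red at the top and blue at the bottom, and the black line divides DSS from DSS+CA.

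A fit with an offset for each library's trend on transcript GC content, added after the data were seen, still called 0 members, while it called 109 of all tested genes (1.1%). The SE was smaller for 96 of the 104 members. At an unadjusted p below 0.05 in this edgeR fit, 3 members were higher (Gadd45b, Cdc25a and Ywhag) and 4 lower (Cdkn2d, Gadd45a, Rbl2 and Cenpf). These 7 of 104 were 6.73% of the tested members, against 12.9% of all tested genes (5.66% higher and 7.19% lower). Cdkn2d had the smallest adjusted p, 0.286, with a log2 fold change of -0.95. In this fit of the same libraries all 5 tested CDK inhibitors were below 0, with Cdkn2b at -0.0084 and Cdkn1b at -0.060. All 8 tested cyclins were above 0, Ccne2 having crossed from -0.09 to 0.13. Of the G2/M members, 15 were above 0 in both fits, while Bub1 crossed to above 0 and Cdc25b to below it.

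Bulk crypt RNA can hold RNA of several cell types, dividing or not, and the summed markers of some of them did not overlap between the groups. The summed level of 6 T cell markers was 158 to 318 CPM in DSS and 28.7 to 106 CPM in DSS+CA, all 4 of those tested were below 0, and none passed the test. Markers of B and plasma cells summed to 27.4 to 64.5 CPM in DSS and 6.55 to 21.8 CPM in DSS+CA, with 3 of 3 tested below 0. Those of myeloid cells overlapped, at 15.9 to 23.0 and 6.20 to 16.8 CPM, and Itgam among them had the higher mean in DSS+CA. Within the epithelium, goblet markers summed to 2860 to 3593 CPM in DSS and 1540 to 2474 CPM in DSS+CA, with 3 of 4 below 0. Paneth markers overlapped, at 5461 to 35762 and 4204 to 16705 CPM, with 4 of 4 below 0, and no marker of either list passed the test. Absorptive markers (Apoa4, Sis, Alpi and Fabp1) also overlapped, at 10056.5 to 42309.7 and 14015.6 to 43888.2 CPM. Of these, 2 of 4 were below 0, none passed the test, and their sum was highest in DSS 2, DSS 3 and DSS+CA 3. Fibroblast markers summed to at most 4.70 CPM and endothelial markers to at most 2.38 CPM in any library. Of the stem cell markers Lgr5, Olfm4, Ascl2 and Smoc2, Olfm4 made up most of the sum, at 292 to 1361 CPM in DSS and 159 to 506 CPM in DSS+CA, and the others did not share its order of libraries. Smoc2 had a log2 fold change of 0.14, against -0.88 for Olfm4 and -0.37 for Ascl2, and none of these passed the test. Lgr5 was below the filter, with a mean of 7.43 CPM in DSS and 2.56 CPM in DSS+CA and groups that overlapped. The part of these cells in the values of Mki67, Top2a, Cenpf and the other members was not tested.

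Levels between genes can be compared per length, but the lengths that the deposited FPKM values imply lay within 1% of the GENCODE M21 exon union for just 6 of 114 members, and ran from 0.293 to 2.37 times it. The median FPKM over the 8 libraries ran from 0.898 (Cdkn1c) to 91.9 (Ywhae) among the tested members, with a median of 4.67, against 5.34 for all tested genes. After Ywhae came Sfn, a 14-3-3 gene of epithelia, at 84.3, Skp1a, a core part of SCF, at 64.5, Ywhab at 49.7 and the cohesin gene Rad21 at 49.1. Taken per base of the exon union, the leading 4 genes kept this order, and Ywhah, at 46.5, passed Rad21, at 41.8. Ccnb2 stood above Ccnb1 on either length, at 23.8 against 1.90 in deposited FPKM and at 23.9 against 3.62 per base of the exon union.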

How the data were processed

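Libraries were made from 200 ng of RNA (RNeasy Micro) with the TruSeq Stranded Total RNA kit, per the labels' protocols. Each gene has a raw count and FPKM in every deposited table, per the file headers. The submitters' processing notes name HISAT2 and StringTie, with builds GRCm38 and mm10. Strand setting, annotation and the tool that counted reads are not stated in the sources used here, so overlapping and antisense genes cannot be told apart. Deposited FPKM implied 1 fixed length per gene within 1% for 17718 of 17718 genes, a median of 1.24 times the exon union of GENCODE M21 over the members. This implied length is the gene length used above and in the length offset.

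Libraries were grouped by the labelled treatment, 4 per group. Genes with a deposited FPKM of 1 or more in 4 or more libraries were tested on the counts with edgeR 4.0.16 (limma 3.58.1, R 4.3.3): TMM scaling, quasi-likelihood test, group as the only term, two-sided, with Benjamini-Hochberg adjustment over 9913 genes. The SE was taken from the test, as the size of the log2 fold change over the square root of F. DESeq2 1.42.0, other scaling, no filter, gene length and GC offsets (loess span 0.5), a replicate block and leaving out libraries were the alternatives. The test was tested on simulated data with 200 changed genes, and 5 unchanged genes were called. Every pair of libraries of a group differed by more than sampling noise. Depth was 13334012 to 17973196 counts. The 95% intervals of log2 fold changes rest on the spread between libraries, both of the gene and of the other genes that edgeR draws on. Promoters were matched by symbol to RefSeq. Python 3.11.15, pandas 2.3.3 and matplotlib 3.10.9 were used.

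The members and lists were chosen with earlier results of these data known. The genes named were a list of 34 members, the 5 members with the smallest p in each direction, every member whose groups did not overlap, and 7 genes of the other mitosis list. Stag2, Cdc25b, Orc2 to Orc5 and genes ranked by FPKM were named after their values were seen.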

Additional observations from a re-analysis of the deposited data

Results flagged for a closer look

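In 8 of the 100 groups of 4 values looked at (50 named genes in 2 groups), 1 library lay far from the other 3 by Dixon's criterion, which chance alone meets in about 1 in 20 groups. DSS+CA 3 was the library in 4 of the 8. There, Ccne2 stood at 44.5 CPM against 12.4 to 14.1 CPM in the others of its group, Mad2l1 at 101 against 33.8 to 41.0 CPM, and Birc5 at 47.7 against 38.2 to 39.4 CPM. E2f1 was low in it, at 1.94 against 6.27 to 7.02 CPM. Cdk4 was high in DSS 3, at 122 against 48.2 to 59.6 CPM, and Plk1 was low in DSS 2, at 8.92 against 22.0 to 23.9 CPM. Foxm1 was high in DSS 1, at 23.3 against 4.72 to 7.63 CPM, and also in DSS+CA 1, at 21.6 against 8.54 to 9.54 CPM. What set these libraries apart was not tested.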

How the results depend on the processing

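No member passed an adjusted p of 0.05 under DESeq2, RLE scaling, no filter, the length, GC or replicate block settings, or without any single library, and the number at an unadjusted p below 0.05 ran from 0 to 12 without a library. The 12 (11.5%) came without DSS 3, where 13.1% of all tested genes passed. Without DSS 2, DSS 3 and DSS+CA 3, 2 members (Cdk4, log2 fold change 0.77, and Atm, -1.03) and 1 other mitosis gene (Smc4, -0.79) passed, and 25 members (24.0%) had an unadjusted p below 0.05, against 27.5% of all tested genes; the cause was not tested. Over all genes, calls (higher and lower) were 4 and 9 as reported, 51 and 169 under DESeq2, 7 and 20 under RLE scaling, 18 and 54 under the length offset, 26 and 83 under the GC offset, 18 and 61 with no filter, and 234 and 421 without those 3 libraries.

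The members' median was 0.20 without DSS 2 and ran from -0.059 to 0.20 over single libraries left out. It was -0.01 under DESeq2. The G1/S median ran from 0.09 to 0.29, and the G2/M median from 0.11 to 0.23. DSS 1 and DSS 3 correlated best with the DSS+CA library of the same number, while DSS 2 and DSS 4 did not. The correlations of same-numbered libraries were 0.75, -0.34, 0.11 and 0.20. With the replicate number as a block, the medians were 0.01, 0.18 and 0.20, 14 and 51 genes were called over all, and no named gene changed its call or direction.

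Some named genes changed sign, and the cause was not tested. Under the GC offset Ccne2 was at 0.13 and Bub1 at 0.0046. With no filter Cdkn1b was at 0.031, Cdkn2b at 0.042, Pttg1 at 0.0095 and Wee1 at 0.068. Under the length offset Cdkn2b was at 0.030 and Kif11 at -0.034, and Kif11 was at -0.014 under DESeq2 and RLE scaling. Without DSS 2, DSS 3 and DSS+CA 3, Cdkn2b was at 0.047, E2f1 at 0.16, Pttg1 at 0.063, Foxm1 at -0.20 and Kif11 at -0.35. Over single libraries left out, log2 fold changes that crossed 0 ran as follows. Ccne2 ran from -0.74 to 0.53, Cdk1 from -0.24 to 0.39, and Cdk6 from -0.67 to 0.13. Cdkn1b ran from -0.22 to 0.082, Cdkn2b from -0.11 to 0.10, and Rb1 from -0.30 to 0.063. E2f1 ran from -0.40 to 0.0082, Bub1 from -0.58 to 0.37, and Mad2l1 from -0.60 to 0.20. Pttg1 ran from -0.19 to 0.024, Espl1 from -0.15 to 0.41, Chek1 from -0.61 to 0.11, and Wee1 from -0.19 to 0.29. Cenpe ran from -1.28 to 0.0052, Aurkb from -0.013 to 0.39, Foxm1 from -0.21 to 0.97, and Kif11 from -0.24 to 0.21. Cenpf ran from -1.75 to -0.55 and stayed below 0. In the simulation, which drew each gene by itself at the depth and spread of all 8 libraries, folds of 2 were mostly not detected.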
